A study of Mus musculus with 2 samples.

Results

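The genes examined here are the α2,3-sialyltransferases St3gal1 to St3gal6, the α2,8-sialyltransferases St8sia1 and St8sia5, and Ugcg, which makes the glucosylceramide that gangliosides are built on. They were found by the gene name printed for each non-control array spot, which for the sialyltransferases is an older symbol such as Siat9 for St3gal5, and the description of each spot was read as a check. The 9 genes had 14 probes by this rule, out of 41174 distinct probes on the array and 28677 genes and transcripts that could be measured. A further 2 probes, 1 for St3gal3 and 1 for St8sia5, carry other names but matched these genes by accession. The set was chosen by role, with its ratios of DKO over WT on these same arrays already known, so every ratio below is a description and none was tested.

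RNA came from interscapular brown fat of double-knockout mice (DKO) and wild-type mice (WT). DKO mice lack genes that include the nuclear receptor gene Rora. Both genotypes were C57BL/6 males of 2 to 3 months, 4 mice per genotype, collected near circadian time 20, with no treatment named. No promoter or Cre restricts the knockout in the labels, and the part of each gene that was deleted, and whether the mice of a genotype were pooled, are not given in the sources used here. Both RNAs were hybridised together on 2 Agilent whole mouse genome arrays of 60-base probes, with DKO in the red dye Cy5 and WT in the green dye Cy3 on one array and the dyes reversed on the other. The pair of arrays was counted as 1 replicate per genotype, so no p-value is given. A value written as mean ± SD is the mean log2 ratio of DKO over WT on both arrays (n = 2 arrays), and its SD holds dye effects and measurement error, not the spread between mice.

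Gangliosides are glycosphingolipids that carry sialic acid and sit mainly in the outer leaflet of the plasma membrane. Ceramide receives glucose from Ugcg and then galactose, which gives lactosylceramide, and St3gal5 adds the first sialic acid to make GM3, the parent of most gangliosides. St8sia1 adds a second sialic acid to make GD3, further transferases extend the chains into several series, and lysosomal sialidases and glycosidases take the products apart. GM3 is the main ganglioside of adipose tissue, where it is known for its association with the insulin receptor.

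The arrays' probe sequences are not used here, so the sequences shown are promoter windows from RefSeq (GRCm38.p6), which cover 250 bases before to 50 bases after an annotated gene start. Of the 9 genes, 6 had a window, and St3gal6 had 2 because it has more than 1 annotated start. The stretches before the first annotated base of St3gal5 and St3gal6 are printed because these are the genes with the highest ratios. St3gal5 is on chromosome 6 (chr6:72097358-72097551, plus strand, 194 bases), and the stretch of St3gal6 is on chromosome 16 (chr16:58524261-58524503, minus strand, 243 bases). The third is the 30-base surrounding of the single AGGTCA among the members' windows, in St8sia1 (chr6:142964489-142964518, minus strand). Capitals mark CCAAT and GGGCGG on either strand in the first pair, and AGGTCA in the third.
St3gal5: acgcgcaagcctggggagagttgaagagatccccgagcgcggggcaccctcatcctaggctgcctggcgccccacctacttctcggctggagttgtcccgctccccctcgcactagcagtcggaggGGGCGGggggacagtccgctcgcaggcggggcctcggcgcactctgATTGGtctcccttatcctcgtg
St3gal6: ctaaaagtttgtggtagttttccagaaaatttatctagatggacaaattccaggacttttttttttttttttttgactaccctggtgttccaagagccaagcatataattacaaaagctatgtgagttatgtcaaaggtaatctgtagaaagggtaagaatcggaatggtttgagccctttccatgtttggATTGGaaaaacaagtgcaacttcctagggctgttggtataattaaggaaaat
St8sia1: gcggccccaagcAGGTCAcgggaggcaatt

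The letters AGGTCA were searched because nuclear receptors of the family that includes Rora bind this core after an A/T-rich stretch. On either strand AGGTCA was present in 16.3% of all 32851 windows, and TAGGTCA, which contains it, in 2.61%. Among the members AGGTCA was found in St8sia1 alone, and TAGGTCA was in none of the 7 windows. The St8sia1 match ends 48 bases before the start its window is built on, which need not be the gene's first annotated base. The absence says only that these letters are not in these windows. CCAAT was present in 37.4% of all windows and GGGCGG in 35.7%, and neither overlaps AGGTCA in the stretches shown. The full St3gal5 window is 72.7% G and C, and those of Ugcg, St3gal4 and St3gal3 are 81.3%, 74% and 70%, where the median of all windows is 52.7%. The first St3gal6 window is 38.7% G and C with 3 CG dinucleotides and the second 64.7% with 20, while St3gal5 has 33.

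A probe counted as measured if 1 of the genotypes was well above its local background on both arrays, by the scanner software's flag at 2.6 background SDs. All 14 probes were measured, and none was saturated or marked as an outlier. Apart from St3gal5 and St8sia5, their signals lay between 65.25 and 224.0 scanner units, over local backgrounds of 55 to 75 units. A probe's brightness depends on its own hybridisation, so signals were compared between genotypes for 1 probe and never between genes. Log2 ratios were made after background correction with an added offset of 50, which pulls the ratios of dim probes towards 0. For that reason the scanner software's own ratios, which carry no such offset, are given beside some values.

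**Figure D1:**
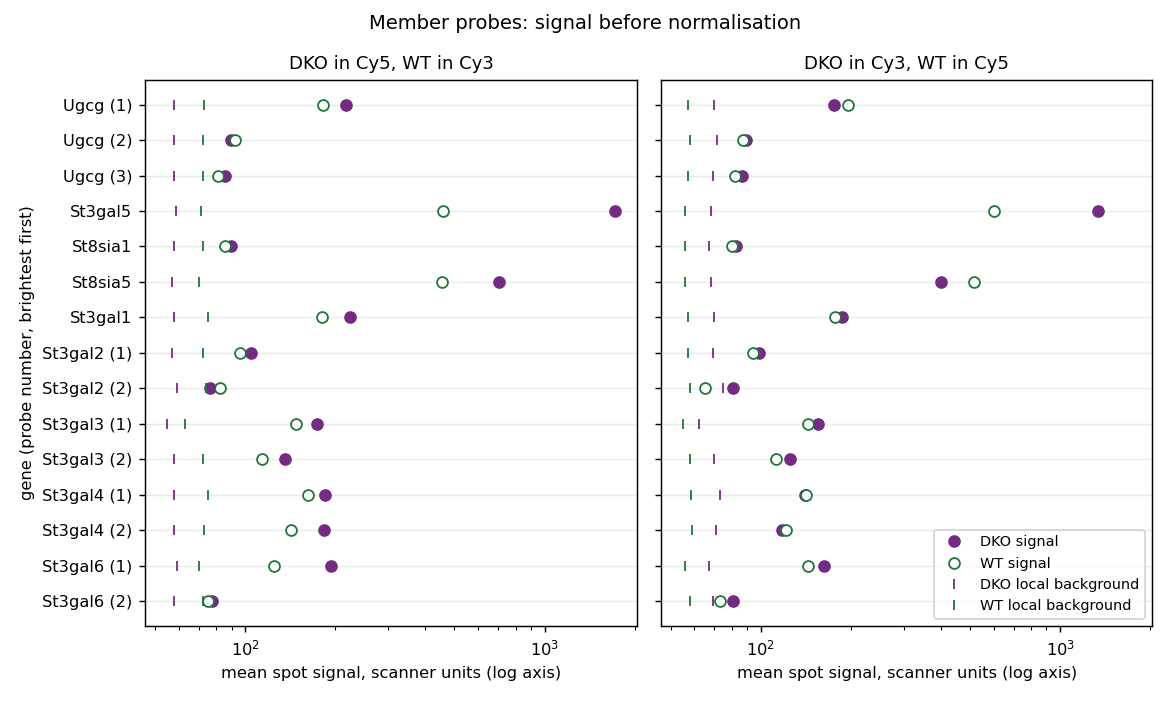
Mean spot signal before normalisation (scanner units, log axis) for the 14 probes and the St3gal3 probe tied by accession, with DKO as filled and WT as open circles on each array, and ticks for local background. St3gal5 had 1712 and 1335 units in DKO, against 456.9 and 601.4 units in WT, and the other named probes except St8sia5 lay between 65.25 and 224.0 units.

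St3gal5, the GM3 synthase, was higher in DKO than in WT brown fat on both arrays. Its probe read 1712 units in DKO and 456.9 units in WT with DKO in Cy5, and 1335 units in DKO and 601.4 units in WT with DKO in Cy3. The DKO signal was the higher of the pair in either dye, over local backgrounds of 56 to 71 units. After normalisation its log2 ratio was 1.30 with DKO in Cy5 and 1.48 with DKO in Cy3, a mean of 1.39 ± 0.13 or 2.62-fold. The scanner software gave 1.42 ± 0.19 and 1.56 ± 0.20 on the same arrays, where ± is the software's own error for 1 array, and the mean of both was 2.80-fold. In whole tissue, a change in the number of the cells that express a gene and a change in RNA per cell cannot be told apart.

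St3gal5 was the single member called by a size rule that asked for a mean of at least 2-fold, at least 1.5-fold the same way on each array, and signal well above background in the higher genotype. Of the 9 genes, 1 was called higher in DKO and 0 lower, where 0.101% of the 28677 measured genes and transcripts were called higher and 0.0244% lower. Since the same ratios led to the choice of the set, nothing is read from that count. Among all measured genes and transcripts, 12 had a mean ratio at or above that of St3gal5, itself included, and 8 genes with a symbol lay above it. The 2849 genes within 1 log2 unit of its average intensity had mean ratios with an SD of 0.21 log2 units. It rests on 1 probe, so no second probe could be set beside it.

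**Figure D2:**
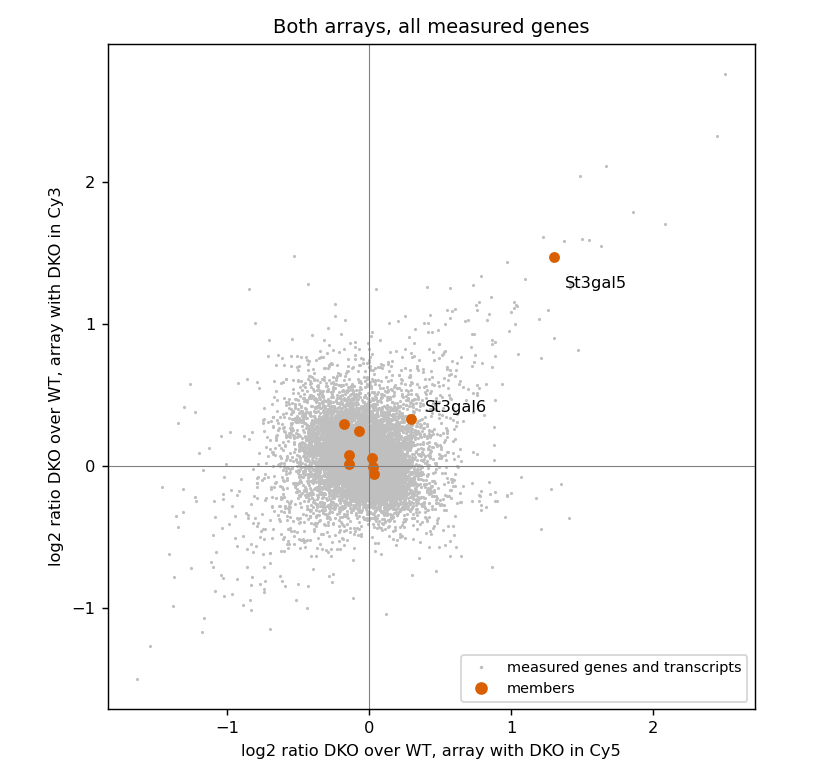
Log2 ratio of DKO over WT on the array with DKO in Cy5 (horizontal) against that on the array with DKO in Cy3 (vertical), for all measured genes and transcripts (grey) and the 9 members (orange, brightest probe). St3gal5 lies at 1.30 and 1.48, St3gal6 at 0.29 and 0.33, and the other 7 members lie within 0.30 of 0 on each array.

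The genes whose pair of array ratios lay nearest to that of St3gal5, by Euclidean distance over 2 arrays, were Ckmt2 (0.16), Depp1 (0.22) and Gmpr (0.24). Ckmt2, the mitochondrial creatine kinase of striated muscle, had ratios of 1.22 and 1.61. Depp1, a regulator of autophagy, had 1.41 and 1.28. Gmpr, which converts GMP to IMP, had a mean of 1.55. With 2 values per gene this likeness says no more than that their ratios were of like size.

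The genes that flank St3gal5 on chromosome 6 were not called. On one side Polr1a, a subunit of RNA polymerase I, read −0.01 ± 0.09, Ptcd3 read 0.03 ± 0.10 and Immt, a protein of the mitochondrial inner membrane, read 0.11 ± 0.22. On the other side Atoh8 read 0.04 ± 0.06, Sftpb read −0.03 ± 0.14 and Usp39 read 0.02 ± 0.01. These are the 3 nearest measured genes on each side, and unmeasured genes lie between them and St3gal5.

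Ugcg, which starts the pathway, had 3 probes and none was called. Its brightest probe read 217.9 units in DKO and 181.8 units in WT with DKO in Cy5, and 174.9 units in DKO and 195.5 units in WT with DKO in Cy3, so the Cy5 signal was the higher on both arrays. Its ratio was −0.14 with DKO in Cy5 and 0.02 with DKO in Cy3, a mean of −0.06 ± 0.11. The other 2 probes disagreed in sign: 1 lay below 0 on both arrays at −0.09 ± 0.06 and the other above 0 on both at 0.04 ± 0.02. No direction was therefore shared by the Ugcg probes.

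Of the α2,8-sialyltransferases, St8sia1, the GD3 synthase, had a dim probe that read 89.61 units in DKO and 85.43 units in WT with DKO in Cy5, and 82.67 units in DKO and 80.37 units in WT with DKO in Cy3. Its ratios of 0.02 and −0.00 had a mean of 0.01 ± 0.02, and the software's error was 0.42 and 0.46 log2 units on these arrays. A small change of St8sia1 was therefore not detectable at this signal. St8sia5, which adds a further sialic acid to more complex gangliosides, was bright. Its probe read 703.5 units in DKO and 453.2 units in WT with DKO in Cy5, and 400.2 units in DKO and 515.4 units in WT with DKO in Cy3. The higher signal followed Cy5 and not the genotype, and after normalisation the ratios were 0.03 and −0.05, a mean of −0.01 ± 0.06. The second St8sia5 probe, tied by accession, was not well above background in either genotype on either array.

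St3gal1 and St3gal2 add sialic acid to galactose of the core Galβ1-3GalNAc, in glycoproteins and in gangliosides such as GM1. St3gal1 read 224.0 units in DKO and 180.6 units in WT with DKO in Cy5, and 186.5 units in DKO and 177.1 units in WT with DKO in Cy3. Its normalised ratios of −0.07 and 0.25 had opposite signs and a mean of 0.09 ± 0.23. The brighter St3gal2 probe read 104.6 units in DKO and 96.03 units in WT with DKO in Cy5, and 98.26 units in DKO and 94.04 units in WT with DKO in Cy3, with ratios of 0.02 and 0.05 and a mean of 0.04 ± 0.03. Its dimmer probe gave −0.09 and 0.09. For that probe the software's ratios were −0.35 ± 0.63 and 0.98 ± 0.83.

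St3gal3, St3gal4 and St3gal6 act mainly on the N-acetyllactosamine ends of glycoproteins and, in part, on glycolipids of the neolacto series. St3gal3 read 174.1 units in DKO and 147.7 units in WT with DKO in Cy5, and 155.6 units in DKO and 143.7 units in WT with DKO in Cy3. Its ratios of −0.18 and 0.30 had opposite signs, with a mean of 0.06 ± 0.34, while the probe tied to it by accession read 0.04 and 0.22. The brighter St3gal4 probe read 184.9 units in DKO and 161.6 units in WT with DKO in Cy5, and 141.0 units in DKO and 141.4 units in WT with DKO in Cy3. Its ratios of −0.14 and 0.08 gave −0.03 ± 0.16, and the second probe gave 0.03 ± 0.03, so the St3gal4 probes differed in sign.

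St3gal6 was also higher in DKO on both arrays, at a smaller size. Its brighter probe read 193.0 units in DKO and 124.9 units in WT with DKO in Cy5, and 162.9 units in DKO and 143.4 units in WT with DKO in Cy3. As for St3gal5, the DKO signal was the higher in either dye before normalisation. That order also held for St3gal1, St3gal3, St8sia1, the brighter St3gal2 probe and a dimmer Ugcg probe, among others. These signals still hold the local background, which was higher in Cy3 than in Cy5. For St3gal6 it was 70 against 59 units with DKO in Cy5, and 67 against 56 units with DKO in Cy3. No comparison between genes is therefore read from that order. For St3gal1 and St3gal3 the normalised ratio was still below 0 with DKO in Cy5. The brighter St3gal6 probe had ratios of 0.29 and 0.33, a mean of 0.31 ± 0.03 or 1.24-fold. The software's ratios for it were 0.55 ± 0.20 and 0.51 ± 0.19, a mean of 1.44-fold. The second St3gal6 probe, which is dim, was also above 0 on both arrays at 0.08 and 0.07. St3gal6 was not called by the size rule, and 1.35% of measured genes and transcripts had a mean ratio at or above it. Of the 10064 within 0.5 log2 units of St3gal6 in average intensity, 0.795% had such a ratio. None of the 3 nearest measured genes on either side of it on chromosome 16 was called, and their mean ratios lay between −0.10 for Cmss1 and 0.11 for Cpox.

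**Figure D3:**
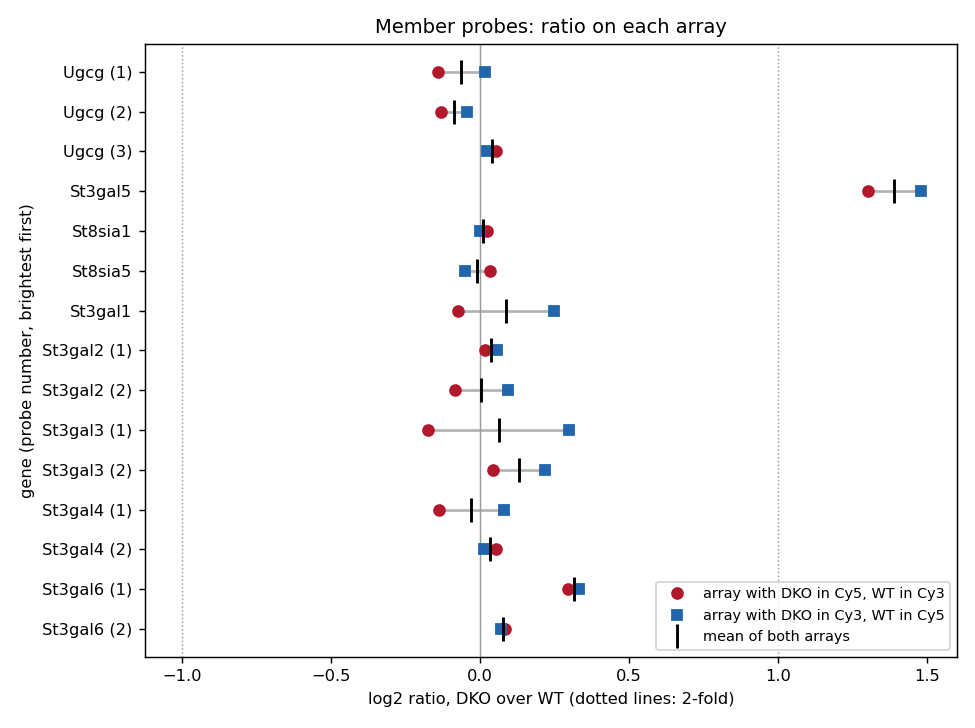
Log2 ratio of DKO over WT on each array (circle, DKO in Cy5; square, DKO in Cy3) and the mean of both (bar), for the 14 probes and the St3gal3 probe tied by accession, ordered by role in the pathway. St3gal5 is past the dotted 2-fold line at 1.39, St3gal6 reads 0.31 and 0.08 by its probes, and 7 of the 14 probes have opposite signs on the arrays.

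Over the whole set of 14 probes, 6 were above 0 on both arrays, 1 was below 0 on both and 7 had opposite signs. By the brightest probe of each gene, 3 genes were above 0 on both arrays (St3gal2, St3gal5 and St3gal6), 0 were below and 6 had opposite signs. Among all measured genes and transcripts 19.2% were above 0 on both arrays and 17.9% below. The median ratio of the 9 genes was 0.04, and that of the 8 genes other than St3gal5 was 0.02, with a range of −0.06 to 0.31. The median of all measured genes and transcripts was 0.00, and the central 95% of them lay between −0.20 and 0.23.

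A second size rule, chosen after the values were seen, asked that the software's ratio exceed 2 of its own errors the same way on both arrays. St3gal5 and St3gal6 passed it, both higher in DKO, and 0 members passed it lower. Of all measured genes and transcripts, 0.781% passed it higher and 0.67% lower. The errors come from the software's model of 1 array and do not hold the spread between mice.

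**Figure D4:**
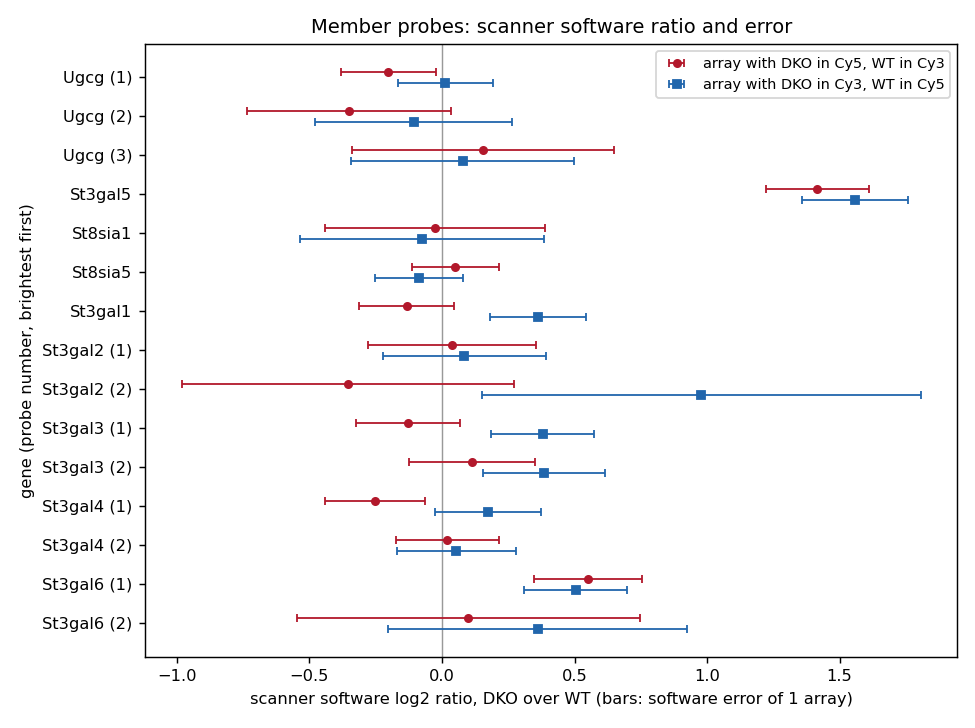
Scanner software log2 ratio of DKO over WT for each member probe on each array, with the software's error for that array as the bar. St3gal5 (1.42 and 1.56) and the brighter St3gal6 probe (0.55 and 0.51) lie more than 2 errors above 0 on both arrays, and the dim second probe of St3gal2 has errors of 0.63 and 0.83.

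The genes around the members in the pathway were read from lists chosen for their role, and none of them was called in either direction. Ceramide supply had 7 of 12 genes measured. Its median ratio was 0.01, beside array medians of opposite sign, −0.195 with DKO in Cy5 and 0.236 with DKO in Cy3. Its lowest gene was Cers2, the synthase of very-long-chain ceramides, at −0.59 and −0.30 on the arrays and −0.45 ± 0.21 on average, and its highest was Sptlc1, a subunit of the first enzyme of sphingolipid synthesis, at 0.10 ± 0.25. The enzymes that make lactosylceramide and extend the ganglioside series, B4galt5, B4galt6, B4galnt1 and B3galt4, were all measured and lay between −0.05 for B4galt6 and 0.03 for B4galt5, with a median of 0.02. The other branches that use ceramide or lactosylceramide had 6 of 8 genes measured and a median of −0.00, from −0.17 ± 0.33 for B3galnt1, which makes globoside, to 0.10 ± 0.09 for B3gnt5, which starts the lacto series.

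The sialyltransferases outside the set had 9 of 12 genes measured and a median of −0.05, with 1 gene above 0 and 4 below 0 on both arrays. St6galnac2, which sialylates O-glycans of glycoproteins, was the lowest, at −0.42 and −0.35 on the arrays and −0.39 ± 0.05 on average, or 0.765-fold. A second St6galnac2 probe was too dim to count as measured. St6galnac6, which makes α-series gangliosides, was the highest at 0.06 ± 0.36, with opposite signs on the arrays. Under the rule of 2 software errors, St6galnac2 and Cers2 were the lower calls of these lists. The difference between the members and this list was not tested.

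Sialic acid reaches these enzymes as CMP-sialic acid, made in the nucleus by Cmas and carried into the Golgi by Slc35a1. All 6 genes of this supply were measured, with a median of 0.01. By the brightest probe of each, they lay between −0.07 ± 0.00 for Nans, the sialic acid synthase, and 0.20 ± 0.10 for Cmas. A second Nans probe was above 0 on both arrays, at 0.00 and 0.01. The list of sialidases and of genes of glycosphingolipid and ceramide breakdown, not all of them lysosomal, had 16 of 18 measured, with a median of 0.03. By the brightest probe of each gene, the range ran from −0.11 ± 0.15 for Glb1, the lysosomal β-galactosidase, to 0.26 ± 0.17 for Asah1. Asah1, the acid ceramidase, read 0.14 and 0.38 on the arrays. A dimmer probe of Gm2a read −0.17 ± 0.29. Hexa and Psap, with means of 0.22 and 0.20, had opposite signs on the arrays, so the spread between arrays was larger than these means.

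**Figure D5:**
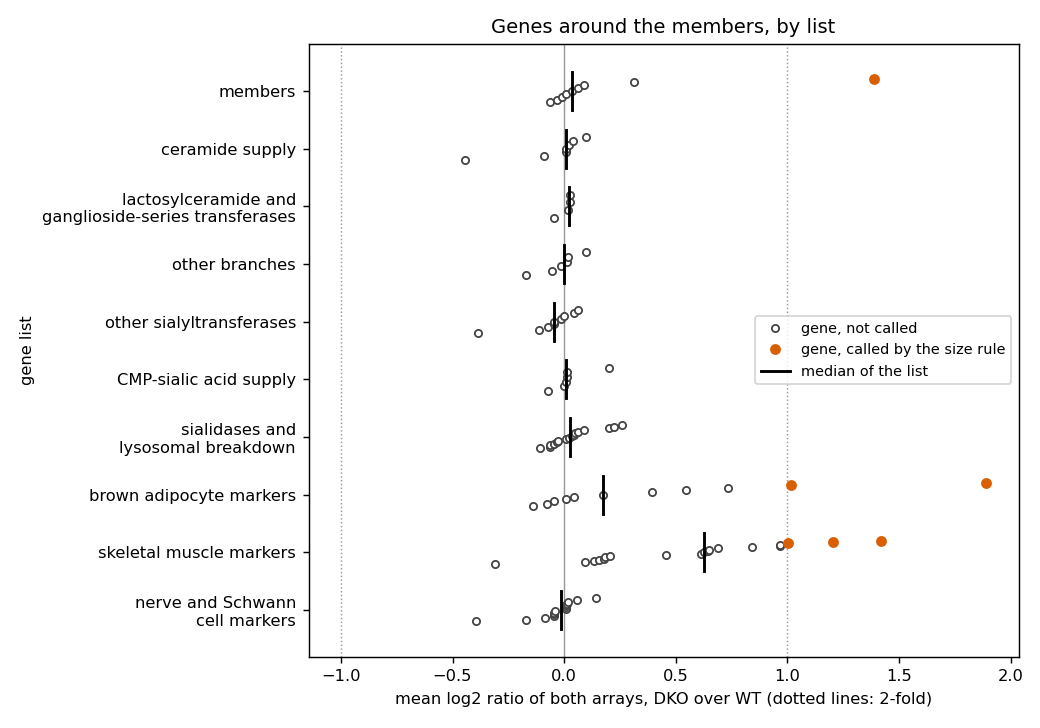
Mean log2 ratio of DKO over WT (horizontal) for each measured gene of the pathway lists and of 3 cell marker lists, with the list's median as a bar and genes called by the size rule filled. St3gal5 is the one called gene of the members, the 6 pathway lists below it have none, and the skeletal muscle list has a median of 0.63 with 3 called genes.

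The tissue and the labels were checked against their markers. The brown fat genes Ucp1 and Cidea were bright in both genotypes, and Cidea had a saturated spot. Ucp1 read 43735 and 33662 units in DKO and 16502 and 25719 units in WT. After normalisation its log2 ratio was 0.74 and 0.73 on the arrays, or 1.66-fold. All 11 brown adipocyte markers were measured. In that list Dio2 (1.89 ± 0.32) and Elovl3 (1.02 ± 0.02) were called higher in DKO, and the median was 0.18. Of the list, 7 genes were above 0 on both arrays and 1, Cidea, was below 0 on both. The list's summed normalised signal, Cidea included, was 148400 and 149100 in DKO, against 133300 and 134000 in WT. Rora itself read −0.38 ± 0.04 and, by a second probe, −0.47 ± 0.10, lower in DKO on both arrays and still well above background there by both. Both Rora probes are dim, and without the offset the software's mean log2 ratios were −0.96 and −1.52, past 2 software errors on both arrays for the first. Over the 4 channels, 77.6% to 85.4% of probe spots were well above background. Across measured genes with a symbol, which are not independent replicates and share each array's dye effects, Pearson's r between the arrays' ratios was 0.08.

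Markers of skeletal muscle were mostly higher in DKO, and most brown adipocyte markers were above 0 on both arrays too. Of 20 muscle markers 19 were measured, 14 were above 0 on both arrays and 1, Myh7, was below 0 on both. The median was 0.63, and Ckmt2 (1.42 ± 0.28), Eno3 (1.21 ± 0.33) and Mb (0.73 and 1.28 on the arrays) were called higher. Their summed normalised signal was 25260 and 28410 in DKO, against 18640 and 16260 in WT, and each measured marker was well above background in both genotypes. The parts of muscle RNA and of brown adipocyte RNA in the St3gal5 and St3gal6 ratios were not tested.

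Other cell types of the tissue were followed as well, because neurons and immune cells express several of the members. Of 15 nerve and Schwann cell markers 14 were measured, 0 were called, 5 were below 0 on both arrays and the median was −0.02, with Mbp lowest at −0.40 ± 0.27. Their summed signal was 5781 and 5157 in DKO, against 6046 and 5048 in WT. The endothelial, macrophage and lymphocyte lists had medians of −0.04, 0.02 and 0.00 and no called gene, and the fibroblast list had a median of −0.09 and none either. Among 8 general adipocyte markers, Lep was called lower at −1.08 ± 0.42 and the median was 0.04. The array medians of these markers had opposite signs, −0.08 with DKO in Cy5 and 0.26 with DKO in Cy3. The part of these cell types in the members' ratios was not tested.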

How the data were processed

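RNA of DKO and WT brown fat was co-hybridised on 2 arrays with reversed dyes. The authors extracted the scans with Agilent Feature Extraction 7.5, per the submitters' processing notes. The deposited spot files hold mean signals and local backgrounds as intensity on a linear scale, per the file headers. They also hold the software's log10 ratio of red over green and its error, deposited after dye normalisation per the file headers. The authors' deposited value table of the series is in log2, as red over green, found by setting it against the scanner files, and it served as an alternative. The design text names Rosetta Resolver, without saying which steps made that table.

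Mean signals were corrected with normexp (offset 50) against the median local background and normalised by loess inside each array (limma 3.58.1, R 4.3.3), where control spots had weight 0. Outlier spots were left out, saturated spots kept, replicate spots averaged and the sign turned where DKO was in Cy3, which left 40979 probes. Probes were named through RefSeq (GRCm38.p6), which also gave the neighbouring genes and the promoter windows and stretches shown. Of the probes, 11450 matched by accession, 5799 through a listed accession, 2296 by symbol and 1307 by an older one. The other 20322 stayed under their spot name. The brightest measured probe stood for a gene. The rule for named genes took all member probes, the highest and lowest measured gene and every called gene of each pathway list, the 3 genes nearest to St3gal5, Rora, and called marker genes. Neighbouring genes, and others named beside these, were picked with their values in view. The members and the lists were chosen with earlier results of these data known. For 1 further gene no level is reported here. Alternatives changed the offset, signal, normalisation, filters, probe rule, thresholds and arrays used. The rest used matplotlib 3.10.9, pandas 2.3.3, numpy 2.4.6 and Python 3.11.15. With 2 arrays, their number limits the precision.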

Additional observations from a re-analysis of the deposited data

How the results depend on the processing

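Over 15 alternative settings, 1 of them chosen after seeing the data, the count of members called higher in DKO was 1, except that it was 0 with a 3-fold threshold and 2 with the rule of 2 software errors, and the count called lower was 0 in each. The count of all genes called higher, 29 as reported, was 53 with the software log ratio, 53 with the series value table, 58 with a 1.5-fold threshold, 7 with a 3-fold threshold and 224 with the rule of 2 errors, and lay between 32 and 55 on single arrays. The count called lower, 7 as reported, was 13 with an offset of 16, 28 with the software log ratio, 28 with the series value table, 39 with a 1.5-fold threshold, 0 with a 3-fold threshold and 192 with the rule of 2 errors, and lay between 9 and 38 on single arrays. Over the 10 alternatives that give a ratio, St3gal5 lay between 1.30 and 1.52 and St3gal6 between 0.19 and 0.53, St3gal6 being lowest when its probes were averaged. Some alternatives could not move St3gal5, which has 1 probe and no outlier spot. The series value table gave the same St3gal5 ratio as the software, and the single-array settings are its 2 array values. St3gal2 stayed above 0 in all 10, but only at 0.02 to 0.06. The software's error for its brighter probe was 0.32 and 0.31 on the arrays, so no direction is read from this. St3gal1, St3gal3, St3gal4, St8sia1, St8sia5 and Ugcg changed sign in 1, 1, 3, 4, 2 and 2 of the 10. For each of these 6 genes 1 such setting was a single array, fixed beforehand by the opposite signs of the arrays. For St3gal1 and St3gal3 it was the only one. The cause of the other sign changes was not tested. Signal over background limits the ratios of the dim probes. No paired analysis was possible because every ratio is already the paired difference of DKO and WT on 1 array, and the labels give no replicate numbers that could enter as a further block.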
